A study of Mus musculus with 6 samples.

Results

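The axon guidance genes of the semaphorin, plexin, ephrin, Eph, Slit, Robo, netrin, Dcc and Unc5 families were followed in single nuclei of the aged mouse hippocampus. They were defined by their symbols: semaphorins of classes 3 to 7, plexins A to D, EphA and EphB receptors, A and B ephrins, Slit1 to Slit3, Robo1 to Robo4, Unc5a to Unc5d, Dcc, Ntn1 and Ntn4. This gave 68 of the 32285 genes listed, of which 65 are protein coding and 3 are antisense transcripts of Plxna4 (Plxna4os1, Plxna4os2 and Plxna4os3). By role there were 7 class 3 semaphorins and 13 semaphorins of classes 4 to 7, 9 plexins, 8 ephrins, 9 EphA and 5 EphB receptors, 7 Slit and Robo genes, and 7 genes of the netrin, Dcc and Unc5 group.

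The study exposed mice 18 to 20 months old to the inhaled anaesthetic sevoflurane (2%, carried in 60% oxygen at 1 L/min) for 6 h, while control mice received only the 60% oxygen with flow and duration unchanged. Frozen hippocampi gave 3 single-nucleus RNA libraries per group, with replicates 1 and 2 labelled male and replicate 3 female. By their labels both groups therefore share age, raised oxygen and duration and differ in the anaesthetic. Sex as read from sex-linked genes departed from the labels and differed between the groups, as given below. The labels name no strain and give no number of mice per library. The p-values here therefore cover the spread between libraries and no more.

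Guidance molecules steer growing axons by attraction and repulsion, and many stay on in the adult brain, where they act on synapses, dendritic spines, glia and vessels. Semaphorins signal through plexins, often with neuropilins as co-receptors, and ephrins signal through Eph receptor tyrosine kinases on neighbouring cells. Slits bind Robo receptors, and netrins bind Dcc, which mediates attraction, and Unc5 receptors, which mediate repulsion.

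After filtering, 51889 nuclei remained, with 7741 to 9711 per library and a median of 4659 to 6089.5 UMIs (unique molecular identifiers, each counting 1 captured RNA molecule) per nucleus. They fell into 44 clusters, drawn without the 68 guidance genes. Of these, 29 received 19 names from marker genes, written here as X-like (the plots leave out the suffix), and 15 clusters with 8703 nuclei stayed unnamed. Sex-linked genes went against the label in 3 of the 6 libraries. Only sevoflurane replicate 1, labelled male, showed the female pattern. All oxygen libraries showed the male pattern, so by these genes the groups also differed in sex, and its part in the calls was not tested. Choroid plexus-like nuclei numbered 61, 16 and 97 in the oxygen libraries and 0 in every sevoflurane library. Septal-like inhibitory nuclei went the other way, with 12, 13 and 17 in the oxygen libraries and 164, 217 and 181 after sevoflurane. An unnamed cluster held 1, 4 and 0 nuclei with oxygen and 50, 62 and 33 with sevoflurane. RNA outside nuclei was not removed: the summed level of 8 pan-neuronal genes was 1458 to 3967 CPM (the usual unit in which each library's UMIs of a class are scaled to the same fixed total) in the tested glial, ependymal and endothelial-like classes of the oxygen libraries, against 6672 to 9285 CPM in tested neuron classes. Of the barcode sequences, 331 of 53492 occurred in more than 1 library.

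The ligand ephrin-A5 (Efna5) and its receptors EphA3 (Epha3) and EphA5 (Epha5) were called lower after sevoflurane in both dentate granule-like and inhibitory-like nuclei, as was the netrin receptor gene Unc5c. The genes lie in the mouse genome mm10, by GENCODE M21, at chr17:62604184-62881317 (Efna5, minus strand), chr16:63543534-63864175 (Epha3, minus strand), chr5:84054761-84417382 (Epha5, minus strand) and chr3:141465216-141834924 (Unc5c, plus strand). The promoters of the ligand and its 2 receptors are shown. Unc5c, which changed in the same 2 neuron classes, is not shown because its window overlaps the annotated gene. Each line holds the 250 bases before the RefSeq transcript start on GRCm38.p6, read 5′ to 3′ on the gene's strand, at chr17:62881318-62881567, chr16:63864176-63864425 and chr5:84417383-84417632. The capitals mark the GC box GGGCGG, read on either strand.
Efna5: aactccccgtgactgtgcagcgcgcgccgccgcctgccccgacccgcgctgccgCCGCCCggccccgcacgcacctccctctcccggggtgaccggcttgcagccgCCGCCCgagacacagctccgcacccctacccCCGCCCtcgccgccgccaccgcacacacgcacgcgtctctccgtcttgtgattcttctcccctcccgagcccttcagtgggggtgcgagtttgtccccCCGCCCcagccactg
Epha3: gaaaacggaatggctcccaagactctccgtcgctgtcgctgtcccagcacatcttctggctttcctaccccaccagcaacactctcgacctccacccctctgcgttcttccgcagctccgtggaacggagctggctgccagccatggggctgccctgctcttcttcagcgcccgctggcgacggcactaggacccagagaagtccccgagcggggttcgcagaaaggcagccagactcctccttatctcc
Epha5: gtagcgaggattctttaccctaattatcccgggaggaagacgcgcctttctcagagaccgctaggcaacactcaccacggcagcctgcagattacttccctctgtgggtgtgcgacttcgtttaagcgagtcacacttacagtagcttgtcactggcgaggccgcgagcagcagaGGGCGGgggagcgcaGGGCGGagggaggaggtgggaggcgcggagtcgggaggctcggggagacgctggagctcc

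The Efna5 window held 4 GC boxes and the Epha5 window 2, while the Epha3 window and the Unc5c window that is not shown had 0 matches. Of 32851 RefSeq promoter windows of the same length, 32.7% held at least 1 GC box. G and C made up 74.8% of the Efna5 window, 62.8% of Epha3 and 62.4% of Epha5, against a median of 52.4% over all windows. The windows held 32, 16 and 20 CG dinucleotides, with a median of 6 over all windows. The cAMP response element TGACGTCA, the AP-1 motif TGANTCA and the E-box CACGTG, each searched on both strands and none contained in another, matched 0 times in the 3 windows and in 1.55%, 6.75% and 6.02% of all windows. RefSeq promoter entries were found for 55 of the 68 genes.

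In the oxygen libraries, each guidance gene was ranked across the 19 named classes by its mean CPM over 3 libraries. CPM depend on gene length, so classes are compared within a gene and never genes with each other. In all, 46 genes reached a mean of 50 CPM in at least 1 class, 64 reached 10 CPM and 4 did not reach 10 CPM in any class. For 26 of the 46, all 3 libraries of the highest class lay above all 3 of the next class.

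Among the secreted class 3 semaphorins, Sema3c, Sema3g and Sema3a were each concentrated in a vascular or meningeal class. Sema3c stood at 651 ± 178 CPM (SD, n = 3) in endothelial-like nuclei, 11.4 times its level in the second class, inhibitory-like nuclei. Sema3g reached 60.5 ± 24.9 CPM in endothelial-like nuclei and 2.94 CPM in the second class. Sema3a, the ligand of the plexin A receptors that collapses growth cones, stood at 315 ± 41.4 CPM in vascular leptomeningeal fibroblast-like nuclei and at 14.98 ± 1.29 CPM in inhibitory-like nuclei. Sema3d was highest in oligodendrocyte precursor-like nuclei (360 ± 13.7 CPM), followed by newly formed oligodendrocyte-like nuclei (252 ± 69.0 CPM). Sema3e, the ligand of plexin D1, did not separate CA1 pyramidal-like (400 ± 30.1 CPM) from hilar mossy-like nuclei (382 ± 71.3 CPM).

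Of the semaphorins of classes 4 to 7, which are held in or at the membrane, Sema7a, a ligand of plexin C1, stood at 377 ± 13.9 CPM in endothelial-like nuclei and at 25.4 CPM in the second class, dentate granule-like nuclei. Sema4d, which binds plexin B1, reached 415 ± 112 CPM in newly formed oligodendrocyte-like and 166 ± 17.6 CPM in microglia-like nuclei. Sema5b stood at 281 ± 48.5 CPM in oligodendrocyte precursor-like nuclei and 146 ± 59.0 CPM in newly formed oligodendrocyte-like nuclei. Sema4b was highest in astrocyte-like nuclei, at 72.7 ± 3.72 CPM. Sema6a and Sema5a both ranked first in newly formed oligodendrocyte-like nuclei, but in neither gene did the 3 libraries separate from those of the second class.

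Among the plexins, Plxna4, which with neuropilins forms the receptor for Sema3a, was highest in dentate granule-like nuclei, at 1472 ± 28.1 CPM, and second in CA2 pyramidal-like nuclei, at 905 ± 66.4 CPM. Plxna2 led in vascular leptomeningeal fibroblast-like nuclei (639 ± 72.6 CPM), followed by endothelial-like nuclei (428 ± 52.9 CPM). Plxnb1 stood at 121 ± 2.52 CPM in astrocyte-like nuclei, 2.49 times its level in ependymal-like nuclei. Plxnb3, a receptor for Sema5a, was found in the oligodendrocyte lineage, at 225 ± 43.5 CPM in newly formed oligodendrocyte-like and 142 ± 4.83 CPM in oligodendrocyte-like nuclei. Plxnd1 and Plxnb2 did not separate their first class from the second.

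Of the ephrins, Efnb3 was highest in oligodendrocyte-like nuclei (120 ± 14.02 CPM), while Efnb2 and Efna5 had no class that stood clear. Efna5 was at 366 ± 201 CPM in choroid plexus-like, 356 ± 225 CPM in septal-like inhibitory and 347 ± 13.7 CPM in inhibitory-like nuclei. Each oxygen library held only 16 to 97 choroid plexus-like and 12 to 17 septal-like inhibitory nuclei. Of the EphA receptors, Epha7 led in dentate granule-like nuclei (1104 ± 42.4 CPM against 661 ± 41.0 CPM in CA1 pyramidal-like), and Epha6 in CA1 pyramidal-like nuclei (6890 ± 336 CPM against 4434 ± 372 CPM in CA3 pyramidal-like). Epha3 was highest in Cajal-Retzius-like nuclei, at 814 ± 128 CPM. Epha5, Epha4 and Epha10 ranked first in CA2 pyramidal-like nuclei, without separating from the second class. Of the EphB receptors, Ephb4 was endothelial-like (58.6 ± 2.56 CPM), Ephb1 was highest in newly formed oligodendrocyte-like nuclei (490 ± 84.7 CPM), and Ephb2 was at 155 ± 11.1 CPM in hilar mossy-like nuclei.

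Robo4, the endothelial Robo receptor, stood at 89.0 ± 15.9 CPM in endothelial-like nuclei, with 4.93 ± 4.39 CPM in the second class. Robo2, a Slit receptor of neurons, reached 3882 ± 1097 CPM in Cajal-Retzius-like nuclei, 4.16 times the next class. Slit3 was highest in dentate granule-like nuclei, at 2264 ± 92.4 CPM, close above CA1 pyramidal-like nuclei at 1976 ± 131 CPM. Slit1, Slit2 and Robo1 had no class that separated from the second.

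Among the netrin group, Dcc was highest in CA3 pyramidal-like nuclei (2780 ± 129 CPM) and Unc5d in inhibitory-like nuclei (1681 ± 124 CPM, 2.79 times the second class). Among the named classes Unc5c stood at 2146 ± 137 CPM in CA3 pyramidal-like and 2105 ± 339 CPM in newly formed oligodendrocyte-like nuclei, which did not separate. The map pools the inhibitory clusters, and the cluster labelled Lamp5 below stood higher, at 4881 ± 602 CPM. The ligand Ntn1 was highest in oligodendrocyte precursor-like nuclei (192 ± 39.7 CPM) and Unc5b in Cajal-Retzius-like nuclei (138 ± 29.97 CPM). Unc5a led in dentate granule-like nuclei, at 94.1 ± 2.98 CPM.

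**Figure D1:**
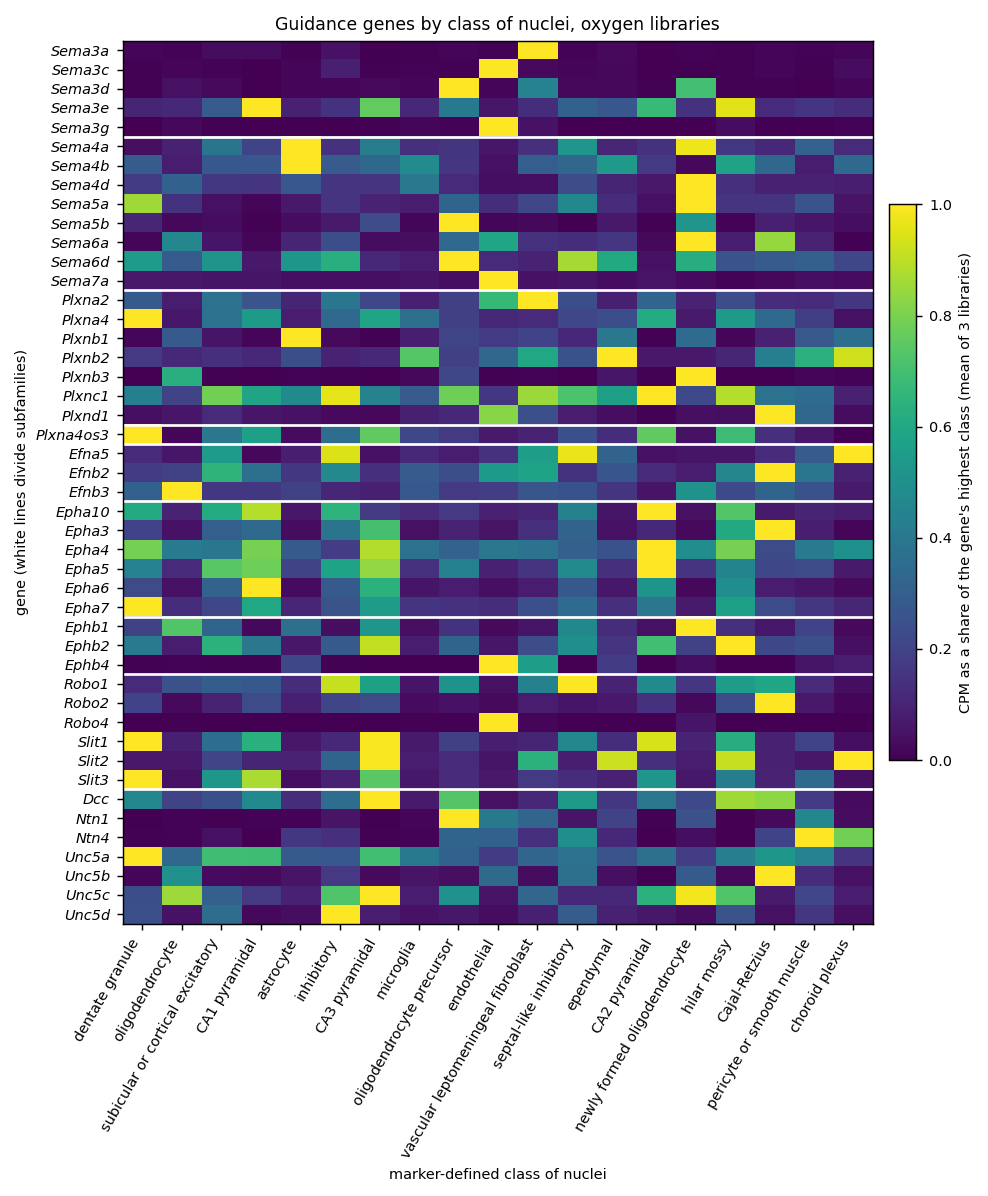
Each row is 1 of the 46 guidance genes that reached 50 CPM in some class, each column 1 of 19 marker-defined classes, and the colour gives the mean CPM of the 3 oxygen libraries as a share of the gene's highest class. Robo4, Sema3c, Sema3g and Sema7a fill a single column, endothelial, while most EphA receptors spread over the neuron classes.

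Sevoflurane was then compared with oxygen in the 14 classes with at least 20 nuclei in every library, by the edgeR quasi-likelihood test over all genes of a class. A gene was called at a Benjamini-Hochberg adjusted p under 0.05. Where groups are said below not to overlap, the genes were already called, so this describes their values and adds no support. Of the 68 genes, 66 were tested in at least 1 class, and 18 in all 14. In all, 28 genes were called in at least 1 class: 24 only lower, Epha2 and Robo4 only higher, and Plxna2 and Epha10 in both directions. Among 622 gene and class tests, 43 passed, 39 lower and 4 higher. This share of 6.91% stands against 1.61% (2500 of 155242) over all genes of the same classes. Both shares take in genes of every length, and long genes are compared with long genes per class below. The remaining 40 genes were called in 0 classes, including Epha4, Sema5a and Sema6d, which were tested in all 14.

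**Figure D2:**
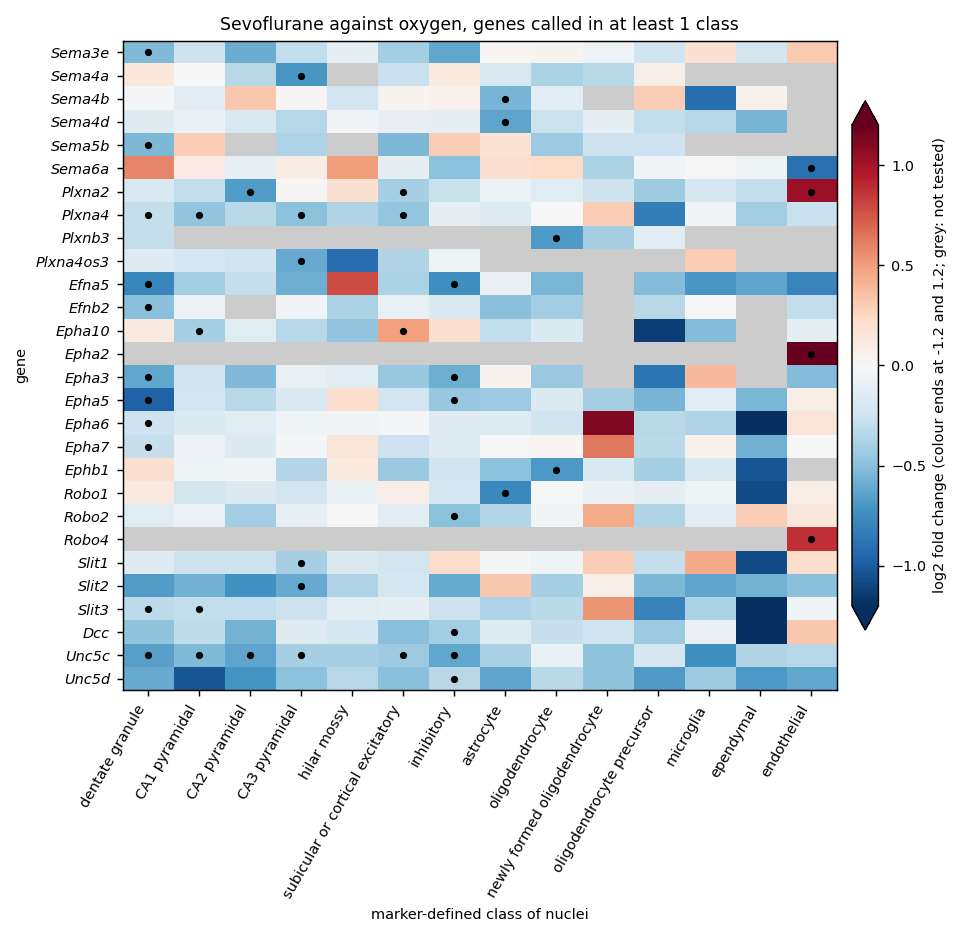
Rows are the 28 guidance genes called in at least 1 class and columns the 14 tested classes; colour gives the log2 fold change of sevoflurane over oxygen, grey marks pairs not tested, and black dots mark the 43 calls. Of the dots, 39 lie on lower levels, and 3 of the 4 on higher levels are in endothelial nuclei.

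Gene span, the distance from a gene's start to its end with introns, moved with the response and is given beside the counts. Of the 68 genes, 30 span 100 kb or more. In dentate granule-like nuclei the median log2 fold change fell from 0.13 in the tenth of all genes with the shortest spans (median 2.52 kb) to -0.18 in the tenth with the longest (median 235 kb). The part of span in the calls was examined by fitting the same test with an offset that removes the trend with span in each library. With the calls over all nuclei added, 21 of 47 calls passed with this offset.

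Over all nuclei, 4 of 68 tested genes were called, all lower: Slit2, Efna5, Unc5c and Plxnc1. Of all 20783 genes, 1.25% were called lower, and 6.39% of those spanning 100 kb or more. Slit2, a Robo ligand, stood at 195, 195 and 208 CPM in the oxygen libraries and at 152, 136 and 138 CPM after sevoflurane (log2 fold change -0.49, SE 0.06, adjusted p = 0.021). Efna5 had 130, 111 and 137 CPM against 76.7, 83.3 and 81.8 CPM (-0.65, SE 0.08, adjusted p = 0.021). In both genes every sevoflurane library lay below every oxygen library. Unc5c went from a mean of 854 ± 34.1 to 622 ± 42.6 CPM (-0.46, adjusted p = 0.0249), and Plxnc1, the receptor for Sema7a, from 55.8 ± 1.80 to 45.02 ± 1.24 CPM (-0.31, adjusted p = 0.0403). Fewer nuclei of a type and less RNA per nucleus cannot be told apart here, and no call passed with the span offset. With 1 library left out, 4 of the 68 were called without sevoflurane replicate 1, 1 without sevoflurane replicate 3 or oxygen replicate 2, and 0 without each of the other 3 libraries.

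Dentate granule-like nuclei, excitatory cells that receive entorhinal input, had more calls than any other class. They also had the most genes tested and the highest share of all genes called in either direction (4.54%). Their largest cluster alone held 7662 nuclei. Of 60 genes tested, 11 were called, all lower, against 3.11% of all 16020 genes. Among the 30 spanning 100 kb or more, 10 were called lower, against 14.4% of all genes of that span. The median log2 fold change of the 60 was -0.15, against 0.02 over all genes.

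Epha5, an ephrin-A receptor, changed most. It stood at 703, 839 and 647 CPM in the oxygen libraries and at 371, 363 and 380 CPM after sevoflurane. The sevoflurane libraries lay close together and below every oxygen library (-0.97, SE 0.09, adjusted p = 0.000946). Its ligand gene Efna5 went from 44.9, 43.5 and 41.8 CPM to 26.5, 27.6 and 21.5 CPM, again without overlap (-0.78, SE 0.11, adjusted p = 0.00366). Epha3 had 174, 162 and 156 CPM against 119, 104 and 96.4 CPM (-0.62, SE 0.09, adjusted p = 0.00418). Unc5c had 574, 488 and 477 CPM against 315, 291 and 371 CPM (-0.66, SE 0.10, adjusted p = 0.00948). These 4 genes passed in each of the 6 fits that left out 1 library and also with the span offset, where the log2 fold changes were -0.78, -0.61, -0.43 and -0.46.

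The other calls in these nuclei covered ligands and receptors of several families. Efnb2, a transmembrane ligand of EphB receptors, spans only 43.8 kb and went from 17.1 ± 1.03 to 12.1 ± 0.46 CPM (-0.50, adjusted p = 0.0255, and -0.51 with the span offset, adjusted p = 0.0331). The Robo ligand Slit3 went from 2264 ± 92.4 to 1819 ± 48.6 CPM (-0.32), and Plxna4 from 1472 ± 28.1 to 1209 ± 72.6 CPM (-0.28). Sema5b, a transmembrane semaphorin, went from 29.7 ± 2.15 to 20.4 ± 1.94 CPM (-0.54). Epha7, Epha6 and Sema3e, beyond the 8 smallest p-values, had log2 fold changes from -0.53 to -0.25. In each of the 11 genes the libraries of the groups did not overlap, which adds no support because the genes were picked as called. With the span offset, 5 of the 11 were called, Robo1 was called higher (0.35, adjusted p = 0.0456), and Epha6 turned to 0.02. The class held 3 clusters in unequal shares of the groups, and in its largest cluster alone 10 of the 11 passed, without Epha6. Leaving out 1 library left 4 calls without oxygen replicate 1 or 2, 5 without oxygen replicate 3, and 9, 6 and 10 without sevoflurane replicate 1, 2 and 3.

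Other values moved with treatment in these nuclei. The summed level of 8 pan-neuronal genes was 8101 to 8243 CPM in the oxygen libraries and 6665 to 7154 CPM after sevoflurane, and that of the 8 dentate granule markers 6507 to 6851 and 5676 to 5744 CPM. The 8 choroid plexus markers, which reached 6836 to 10136 CPM in choroid plexus-like nuclei, summed to 82.6 to 384 CPM in dentate granule-like nuclei of the oxygen libraries and 12.3 to 12.95 CPM after sevoflurane. The part of these values in the calls was not tested.

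**Figure D3:**
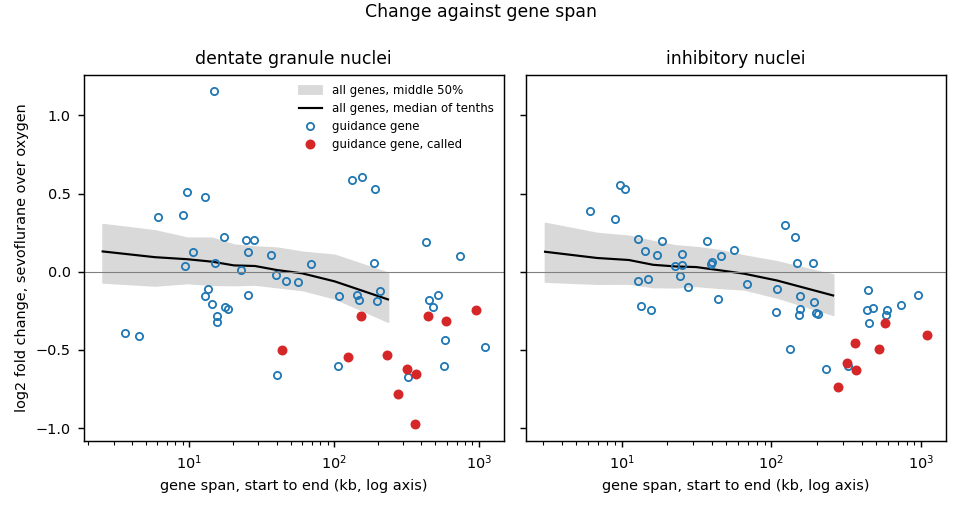
Log2 fold change against gene span (log axis) in dentate granule and inhibitory nuclei: circles are guidance genes, filled where called, the line is the median of all genes in 10 bins of span and the band their middle 50%. In both classes the line falls with span, and of the 11 and 7 called genes Epha5 at -0.97 and Efna5 at -0.74 lie lowest.

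Inhibitory-like nuclei had 7 of 54 genes called, all lower and all spanning 100 kb or more. Of all 14074 genes, 1.2% were called lower, and 6.14% of those of that span. Efna5 stood at 333, 348 and 360 CPM in the oxygen libraries and at 200, 202 and 222 CPM after sevoflurane (-0.74, SE 0.08, adjusted p = 0.000563). Unc5c had 1522, 1679 and 1466 CPM against 1032, 1112 and 874 CPM (-0.63, SE 0.09, adjusted p = 0.00292). Epha5 had 1004, 978 and 878 CPM against 718, 643 and 725 CPM (-0.45, SE 0.08, adjusted p = 0.00855). In all 3 genes the groups did not overlap.

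Robo2 went from 814 ± 65.5 to 576 ± 33.0 CPM (-0.50, adjusted p = 0.0062), and Dcc, the attractive netrin receptor, from 993 ± 26.5 to 749 ± 24.1 CPM (-0.40, adjusted p = 0.0078). Epha3 went from 312 ± 27.8 to 208 ± 35.4 CPM (-0.58, adjusted p = 0.0349) and Unc5d from 1681 ± 124 to 1336 ± 21.9 CPM (-0.33, adjusted p = 0.0349). With the span offset only Efna5 was called (-0.59, adjusted p = 0.00316), and likewise in the largest of the 3 clusters alone, where Epha3 and Robo2 were both at -0.22. Epha3 and Unc5d lost their calls when 1 library was left out, reaching an adjusted p of 0.178 and 0.166, while the other 5 passed in all 6 such fits. The pan-neuronal sum was 6672 to 7268 CPM in the oxygen libraries and 5748 to 6203 CPM after sevoflurane, and its part was not tested.

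Inhibitory-like nuclei held 3 clusters, labelled Lamp5, Pvalb or Vip after the subtype marker list most raised in each. The gene of the label was not among the 10 most raised genes of its cluster. Whether a cluster also held other inhibitory types was not tested. The clusters were fitted apart after the results of the whole class were seen. These fits were not repeated with the span offset or with a library left out, and the shares given are over genes of every span. In the Lamp5 cluster 8 of 42 guidance genes were called, all lower, against 1.17% of all genes. Efna5 went from 420 ± 61.9 to 186 ± 18.5 CPM (SD, n = 3, log2 fold change -1.17), Unc5c from 4881 ± 602 to 2601 ± 373 CPM (-0.90), Sema3e from 126 ± 34.7 to 62.2 ± 11.6 CPM (-1.02) and Robo2 from 1230 ± 117 to 711 ± 65.4 CPM (-0.78). Epha3 went from 617 ± 15.1 to 351 ± 62.3 CPM (-0.81), and Epha5 (-0.54), Epha6 (-0.46) and Sema5a (-0.46) were the other 3 called. In the Vip cluster 4 of 46 were called, all lower, against 0.55% of all genes: Robo2 (-0.71), Epha3 (-0.66), Epha5 (-0.49) and Dcc (-0.47). In the Pvalb cluster 1 of 50 was called, Efna5 (-0.73), against 0.626% of genes called lower. Differences between the 3 clusters were not tested.

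**Figure D4:**
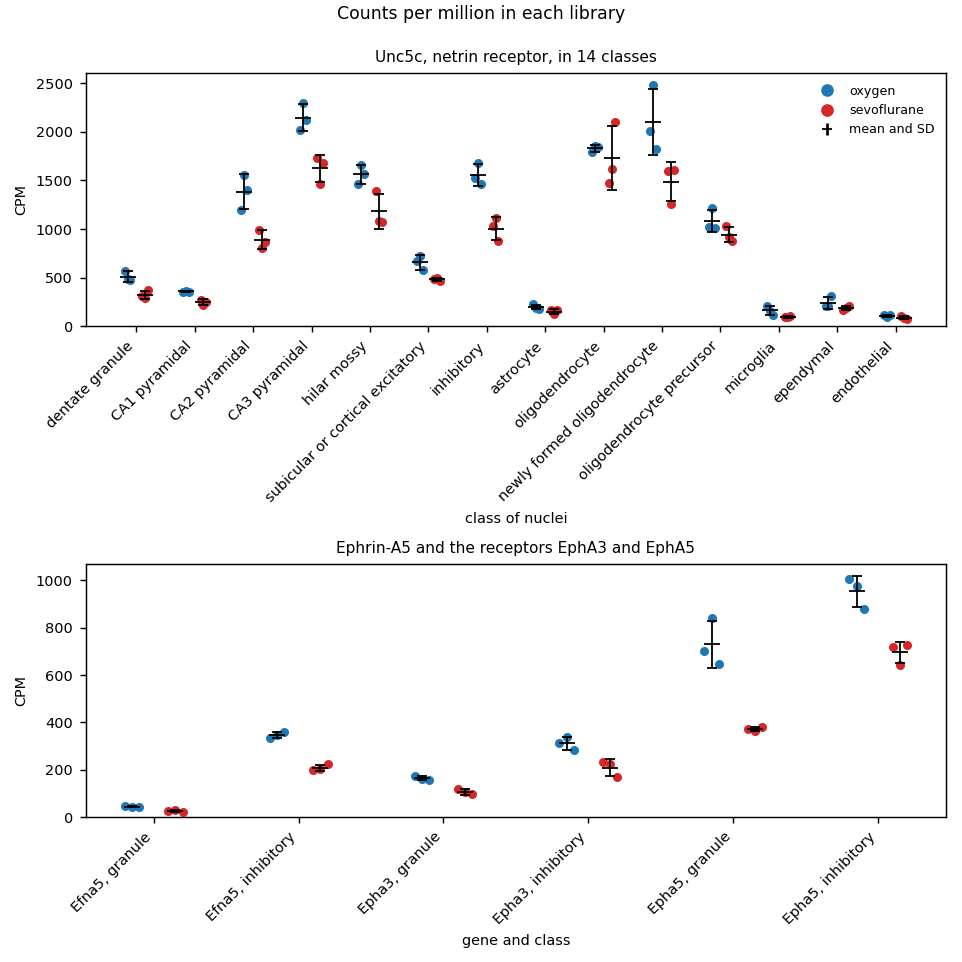
CPM in each library (points), with mean and SD: Unc5c in the 14 tested classes above, and Efna5, Epha3 and Epha5 in dentate granule and inhibitory nuclei below. The Unc5c mean was lower after sevoflurane in all 14 classes, and for Epha5 in dentate granule nuclei the sevoflurane points sit between 363 and 380, all below the oxygen points.

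Unc5c was called lower in 6 of the 14 classes and had a log2 fold change below 0 in all 14, from -0.74 to -0.08. Besides the granule and inhibitory-like nuclei, it was called in CA1 (-0.53), CA2 (-0.63) and CA3 pyramidal-like (-0.40) and subicular or cortical excitatory-like nuclei (-0.44). In oligodendrocyte-like nuclei, where its level was also high, it stood at 1830 ± 36.8 CPM with oxygen and 1733 ± 329 CPM with sevoflurane, which overlapped (-0.08, adjusted p = 0.857). The related Unc5d was below 0 in all 14 classes as well but called only in inhibitory-like nuclei. Both genes span 100 kb or more, and of all genes of that span 58.4% to 75.1% were below 0 in each class. The 14 classes come from the same 6 libraries and RNA outside nuclei was not removed, so they are not separate observations. Plxna4 was called in 4 neuron classes.

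In CA1 pyramidal-like nuclei 4 of 55 genes were called, all lower, against 1.57% of all genes. Among the 28 spanning 100 kb or more, 3 were called lower, against 7.07% of all genes of that span. Plxna4 stood at 781, 811 and 818 CPM in the oxygen libraries and at 540, 574 and 617 CPM after sevoflurane (-0.48, SE 0.07, adjusted p = 0.00599). The groups did not overlap, and the call passed without any 1 library and with the span offset (-0.30). Unc5c went from 360 ± 6.06 to 250 ± 27.8 CPM (adjusted p = 0.00931), Slit3 from 1976 ± 131 to 1605 ± 36.9 CPM (-0.30, adjusted p = 0.036), and Epha10, an Eph receptor without kinase activity, from 180 ± 13.8 to 137 ± 12.1 CPM (-0.40, adjusted p = 0.0408). The span offset left 2 of the 4, Plxna4 and Unc5c, and without any one oxygen library 1 of the 4.

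In CA3 pyramidal-like nuclei 6 of 51 genes were called, all lower, against 0.971% of all genes, and 4 of the 27 spanning 100 kb or more, against 4.65%. Slit2 stood at 784, 705 and 782 CPM in the oxygen libraries and at 488, 486 and 518 CPM after sevoflurane (-0.60, SE 0.07, adjusted p = 0.00337). Slit1 had 522, 550 and 500 CPM against 384, 405 and 401 CPM (-0.40, SE 0.07, adjusted p = 0.0168). Plxna4 went from 859 ± 76.3 to 611 ± 13.1 CPM (-0.49, adjusted p = 0.00863). The groups did not overlap in these 3 genes, nor in Unc5c, Plxna4os3 (-0.60) and Sema4a (-0.70). Plxna4os3 lies on the strand opposite to Plxna4, and without knowledge of strand-specific counting the reads of the pair cannot be told apart. With the span offset 4 were called, Slit2, Slit1, Plxna4 and Plxna4os3, and leaving out 1 library left 3 to 5, with 3 without sevoflurane replicate 2, oxygen replicate 2 or oxygen replicate 3.

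CA2 pyramidal-like nuclei, 334 in number, had 2 of 33 genes called, both lower, against 0.41% of all genes, and both among the 24 spanning 100 kb or more, against 1.46%. Unc5c went from 1383 ± 181 to 891 ± 96.4 CPM (adjusted p = 0.00349), and Plxna2, a receptor for class 6 and class 3 semaphorins, from 209 ± 17.0 to 131 ± 19.5 CPM (-0.67, adjusted p = 0.0183). Neither gene overlapped between groups. Plxna2 lost its call with the span offset (adjusted p = 0.0716), and both calls were lost without sevoflurane replicate 3, where the largest adjusted p was 0.0647 for Unc5c.

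In subicular or cortical excitatory-like nuclei 4 of 60 genes were called, 3 lower and 1 higher, against 1.27% and 0.564% of all genes. Among the 30 spanning 100 kb or more, 3 were called lower, against 6.27% of all genes of that span. Epha10 was the gene that rose, from 142, 119 and 113 CPM with oxygen to 184, 181 and 162 CPM with sevoflurane (0.49, SE 0.10, adjusted p = 0.0327). All 3 sevoflurane libraries lay above the oxygen libraries, the reverse of CA1 pyramidal-like nuclei. Plxna4 fell from 559 ± 36.6 to 406 ± 34.0 CPM (-0.46, adjusted p = 0.0272), Plxna2 from 241 ± 7.62 to 183 ± 12.4 CPM (-0.40, adjusted p = 0.0322), and Unc5c from 659 ± 76.3 to 486 ± 13.98 CPM (adjusted p = 0.0385). None of the 4 was called with the span offset, Epha10 having 0.47 and an adjusted p of 0.0578. No call passed without sevoflurane replicate 1 or oxygen replicate 2, 1 without oxygen replicate 1 or 3, 3 without sevoflurane replicate 2, and 6 without sevoflurane replicate 3.

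The subicular or cortical excitatory-like class was also fitted by cluster, which was not planned. No span offset was applied to these clusters and no library was left out, and their shares are over genes of every span. In cluster 8, 7 of 53 guidance genes were called lower, against 2.51% of all genes, and 1 higher, against 0.649%. Efna5 went from 175 ± 13.4 to 82.2 ± 5.70 CPM (-1.09), and Epha10 rose from 110 ± 12.6 to 165 ± 8.75 CPM (0.59). The other 6 called lower were Unc5c (-0.63), Unc5d (-0.48), Plxna4 (-0.47), Epha5 (-0.41), Plxna2 (-0.40) and Epha4 (-0.33). Cluster 16, with 40 to 137 nuclei per library, had Efna5 (-1.48) and Unc5c (-0.78) called lower, against 0.257% of all genes. Cluster 11 had Sema3e (-0.75) and Plxna4 (-0.55) called lower, against 1.67% of all genes. In cluster 6, Plxna4 (-0.49) and Plxnc1 (-0.45) were lower, against 0.819% of all genes, and the ligand gene Ntn1 was higher, against 0.205%, at 3.78 ± 0.99 against 0.82 ± 0.28 CPM. Ntn1 had 64 UMIs in all and passed the filter on low counts in 3 sevoflurane and 0 oxygen libraries, so it was tested only through the group where it was high.

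Astrocyte-like nuclei had 3 of 49 genes called, all lower, against 1.29% of all genes, and 2 of the 27 spanning 100 kb or more, against 3.86%. Robo1, a Slit receptor at chr16:72308306-73046095 on the plus strand, stood at 232, 247 and 231 CPM in the oxygen libraries and at 131, 139 and 142 CPM after sevoflurane (-0.77, SE 0.12, adjusted p = 0.00188). Both groups were tight and far apart, and the call passed without any 1 library and with the span offset (-0.57, adjusted p = 0.00893). Sema4d went from 112 ± 6.32 to 72.1 ± 9.62 CPM (-0.63, adjusted p = 0.0176) and Sema4b from 72.7 ± 3.72 to 49.0 ± 5.51 CPM (-0.56, adjusted p = 0.0465). Only Robo1 passed without sevoflurane replicate 2 or any one oxygen library. The astrocyte marker sum was also lower after sevoflurane, 10743 to 13198 against 14271 to 14838 CPM, and its part was not tested.

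Oligodendrocyte-like nuclei had 2 of 53 genes called, both lower, against 0.738% of all genes, and 1 of the 28 spanning 100 kb or more, against 2.51%. Plxnb3, the plexin of this lineage, spans 15.4 kb (chrX:73757090-73772514) and stood at 136, 146 and 143 CPM in the oxygen libraries and at 93.2, 79.3 and 92.6 CPM after sevoflurane. The groups did not overlap (-0.68, SE 0.11, adjusted p = 0.011), and the change was -0.71 with the span offset. Ephb1, a receptor for B ephrins, went from 357 ± 55.9 to 220 ± 38.4 CPM (-0.69, adjusted p = 0.039, and 0.206 with the span offset). No call passed without oxygen replicate 2 or 3, and 1 passed without oxygen replicate 1 or sevoflurane replicate 2 or 3. The 8 oligodendrocyte markers summed to 12787 to 13360 CPM with oxygen and 9466 to 11872 CPM with sevoflurane, and their part was not tested.

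In endothelial-like nuclei, 756 in number, 3 of 37 genes were called higher and 1 lower, against 1.59% and 1.44% of all genes. The 1 called lower is among the 23 spanning 100 kb or more, against 3.49% of all genes of that span. Plxna2 (chr1:194618218-194816869, plus strand) stood at 480, 374 and 429 CPM in the oxygen libraries and at 806, 827 and 979 CPM after sevoflurane (1.02, SE 0.18, adjusted p = 0.00198). Sema6a, a transmembrane ligand of Plxna2, had 265, 269 and 321 CPM against 93.8, 169 and 179 CPM (-0.90, SE 0.20, adjusted p = 0.0136). For both genes the groups were apart, the receptor higher and the ligand lower.

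Robo4 (chr9:37401897-37415115, plus strand) had 76.5, 107 and 83.6 CPM with oxygen and 219, 140 and 144 CPM with sevoflurane (0.87, SE 0.21, adjusted p = 0.0234). Epha2, a receptor for A ephrins, had 15.8, 17.8 and 13.01 CPM against 86.9, 51.0 and 29.7 CPM (1.66, SE 0.38, adjusted p = 0.0187). With 106 UMIs in all, Epha2 passed the filter on low counts, 18.4 CPM in these nuclei, in 3 sevoflurane and 0 oxygen libraries, so it could be tested only because it was high after sevoflurane, and its call adds no support to the count. Neither gene overlapped between groups, though the sevoflurane libraries were spread widely, and the 2 were tested in no other class. All 4 calls passed with the span offset, and Plxna2 passed without any 1 library. Without oxygen replicate 3 only Plxna2 of the 37 was called, without oxygen replicate 1 only 2 genes, and without sevoflurane replicate 1 or 2 only 3. In these nuclei the 8 markers of vascular leptomeningeal fibroblasts summed to 251 to 400 CPM with oxygen and 139 to 167 CPM with sevoflurane, and the 9 endothelial markers to 11498 to 12796 and 10402 to 12250 CPM; their part was not tested.

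**Figure D5:**
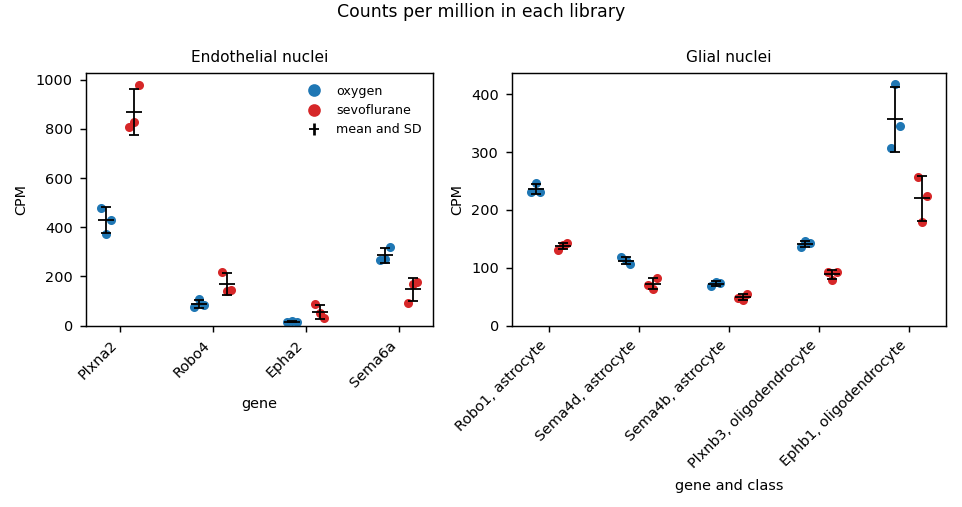
CPM in each library (points), with mean and SD, for the 4 genes called in endothelial nuclei (left) and the 5 called in astrocyte and oligodendrocyte nuclei (right). Plxna2, Robo4 and Epha2 were higher after sevoflurane in endothelial nuclei, and the other 6 genes were lower, with no overlap of the groups in any.

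In 5 classes 0 genes were called by edgeR. In microglia-like nuclei 0 of 37 passed and 6 had an unadjusted p under 0.05, with 0.431% of all genes called. In oligodendrocyte precursor-like nuclei it was 0 of 46 and 11, with 0.0775% of all genes. Their median log2 fold change was -0.24, and Epha5 had the smallest p, with 767, 715 and 686 CPM against 519, 463 and 490 CPM (-0.55, adjusted p = 0.0534). In ependymal-like nuclei it was 0 of 27 and 12, with 0.476% of all genes. There the gene with the smallest p was Slit1, with 50.9, 58.4 and 99.8 CPM against 28.6, 35.9 and 33.8 CPM (-1.07, adjusted p = 0.166). In newly formed oligodendrocyte-like nuclei it was 0 of 26 and 0, with 0% of all genes, and in hilar mossy-like nuclei 0 of 34 and 6, with 0.373%. In these 2 classes and in microglia-like nuclei Unc5c had the smallest p, with adjusted p-values of 0.979, 0.246 and 0.082. DESeq2 called 3 genes in oligodendrocyte precursor-like, 2 in ependymal-like and 0 in each of the other 3 classes.

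Whether a response differed between classes was tested with limma on the difference within each library between dentate granule-like nuclei and each other class. Of all genes tested, 1.8% were called for astrocyte-like, 1.13% for CA3, 0.802% for CA1 and 0.278% for CA2 pyramidal-like, 0.503% for endothelial-like, 0.445% for oligodendrocyte-like and 0.278% for subicular or cortical excitatory-like nuclei. The share was 0.149% for ependymal-like, 0.138% each for hilar mossy-like and inhibitory-like, 0.0761% for microglia-like, 0.0196% for oligodendrocyte precursor-like and 0% for newly formed oligodendrocyte-like nuclei. For Epha5 the fall in dentate granule-like nuclei differed from the response of 8 other classes. The difference was -0.74 from CA1 pyramidal-like (adjusted p = 0.00071), -0.73 from subicular or cortical excitatory-like (0.00101), -0.51 from inhibitory-like (0.0212) and -1.11 from hilar mossy-like nuclei (7.5e-05). The Epha5 differences from CA1 pyramidal, subicular or cortical excitatory and hilar mossy-like nuclei passed in all 6 fits that left out 1 library. That from inhibitory-like nuclei was lost without oxygen replicate 2 or 3 or sevoflurane replicate 3, where the largest adjusted p was 0.113, and so was that from oligodendrocyte-like nuclei (0.0912). The difference from astrocyte-like nuclei was lost in 4 of the 6 fits (all but those without oxygen replicate 1 or sevoflurane replicate 1), that from endothelial-like nuclei in all but the fit without oxygen replicate 2, and that from microglia-like nuclei in all but the fit without sevoflurane replicate 1. For Robo1 the difference from astrocyte-like nuclei was 0.88 (adjusted p = 0.00257), with dentate granule-like nuclei at 0.10, and it passed in all 6 fits. For Plxna2 the difference from endothelial-like nuclei was -1.18 (adjusted p = 0.0142), with dentate granule-like nuclei at -0.18, and it was lost without oxygen replicate 1 or sevoflurane replicate 3. For Epha10 it was 0.50 from CA1 pyramidal-like nuclei (adjusted p = 0.0046), and it passed in all 6 fits. For Unc5c and Efna5 no difference between dentate granule-like nuclei and another class was called.

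Other genes of these pathways, a list of 72 co-receptors, further ligands and signalling genes, gave 39 calls in 836 tests over the same 14 classes, 37 lower and 2 higher, against 1.61% of all gene and class tests. Ntng1, a netrin relative anchored to the membrane, was called lower in dentate granule-like (-0.79), CA1 (-0.57), CA2 (-1.26) and CA3 pyramidal-like nuclei (-0.69). Dscaml1, a homologue of the netrin receptor Dscam, was lower in dentate granule-like (-0.48), CA1 (-0.71) and CA3 pyramidal-like nuclei (-0.62). In dentate granule-like nuclei 10 of 69 were called, all lower, against 3.11% of all genes, with Rasa1 (-0.48), a Ras-inactivating protein, next to the 2 above. CA1 had 5 of 67 (against 1.57% of all genes), CA3 7 of 62 (0.971%), CA2 2 of 57 (0.41%) and subicular or cortical excitatory-like nuclei 6 of 68 (1.27%), all lower. These shares are over genes of every span.

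Mical2, an enzyme that oxidises actin below plexins, was lower in CA1 (-0.63), CA3 (-0.40) and subicular or cortical excitatory-like nuclei (-0.64), the last together with the semaphorin co-receptor Nrp2 (-0.50). Srgap2, a GTPase-activating protein that binds Robo receptors, was lower in endothelial-like (-0.70), subicular or cortical excitatory-like (-0.45), dentate granule-like (-0.37) and CA2 (-0.54) and CA3 pyramidal-like nuclei (-0.35). In endothelial-like nuclei 3 of 52 were called, 2 lower and 1 higher, against 1.44% and 1.59% of all genes: the co-receptor Nrp1 fell (-1.22, adjusted p = 0.000829), Srgap2 fell, and the Src-family kinase Fyn rose (0.81). In astrocyte-like nuclei 5 of 64 were called, 4 lower, among them Limk2 (-0.85), a kinase of the actin regulator cofilin, against 1.29% of all genes. The 1 called higher there was Ablim1 (0.60), an actin-binding protein, against 0.974% of all genes. Ablim1 was called lower in dentate granule-like (-0.32) and subicular or cortical excitatory-like nuclei (-0.66). Oligodendrocyte-like nuclei had 1 of 63, Chn2 (-0.59), against 0.738% of all genes, and inhibitory-like nuclei 0 of 65, with 10 at an unadjusted p under 0.05. With the span offset the 39 calls became 19.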

How the data were processed

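Nuclei of 6 hippocampus libraries were counted by the submitters, with fastp and Cell Ranger 7.1.0 per the submitters' processing notes. The deposited matrices hold raw UMI counts per gene and barcode. Whether intronic or strand-specific reads were counted is not given in the sources used here. Nuclei with at least 500 UMIs, 300 genes and at most 5% mitochondrial counts were kept, and Scrublet doublets (1398) removed. Clusters were drawn with igraph 0.11.9, with doublet scores and variable genes from scanpy 1.11.5, and were named from fixed markers. Counts were summed per library and class and tested with edgeR 4.0.16 (TMM, quasi-likelihood, Benjamini-Hochberg). DESeq2 1.42.0 and limma 3.58.1 served for alternatives and differences between classes. Library totals over all barcodes, before the filters on nuclei, were 56334621 to 72636984 UMIs. Genes named per class were the called genes with the smallest p, at most 8, and on the map at most 6 per family by the ratio of first to second class, with semaphorins split into 2 families and Unc5c added after the values were seen. The code was tested on simulated data. Members and lists were chosen with earlier results of these data known. Same-numbered libraries were not paired.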

Additional observations from a re-analysis of the deposited data

Results flagged for a closer look

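Responses that differed between dentate granule-like nuclei and another class are listed because the difference itself passed limma's test at an adjusted p under 0.05. The values are log2 fold changes of sevoflurane over oxygen, dentate granule-like nuclei minus the other class. For Epha5 the difference was -0.79 from oligodendrocyte-like, -0.73 from subicular or cortical excitatory-like, -0.74 from CA1 pyramidal-like, -0.52 from astrocyte-like and -0.51 from inhibitory-like nuclei. Epha5 also differed by -0.80 from microglia-like, -1.04 from endothelial-like and -1.11 from hilar mossy-like nuclei. Epha10 differed by 0.50 from CA1 pyramidal-like nuclei, Robo1 by 0.88 and Slit2 by -1.02 from astrocyte-like nuclei, and Plxna2 by -1.18 from endothelial-like nuclei. Sema6d differed by -1.04 from CA2 pyramidal-like nuclei, and from CA3 pyramidal-like nuclei Sema4c differed by 2.06 and Plxna4os3 by 0.45. Slit2, Sema6d and Sema4c were called neither in dentate granule-like nuclei nor in the class compared. Of the 6 limma fits that left out 1 library, Slit2 and Sema4c each passed in 2, Plxna4os3 in 1 and Sema6d in 5. The Plxna4os3 difference was also lost with a prior count of 0.5 (adjusted p = 0.0518).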

How the results depend on the processing

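Counts of called guidance genes that moved by more than 1.5 times were as follows. DESeq2 called 11 over all nuclei, 9 in CA1 and 4 in CA2 pyramidal-like, 9 in subicular or cortical excitatory-like, 12 in inhibitory-like, 3 in oligodendrocyte precursor-like and 2 in ependymal-like nuclei, and 65 for the pathway list. Without the filter on low counts they were 8 in CA2, 9 in subicular, 12 in inhibitory, 6 in astrocyte, 5 in oligodendrocyte, 6 in precursor, 3 in ependymal and 1 in microglia-like nuclei, and 74 for the pathway list. The span offset gave 0 over all nuclei, 6 in dentate granule, 2 in CA1, 1 in CA2, 0 in subicular, 1 in inhibitory and 1 in oligodendrocyte-like nuclei, and 19 for the pathway list. Finer clusters gave 6 in astrocyte, 2 in ependymal and 1 in precursor-like nuclei, the largest cluster alone gave 1 in inhibitory-like nuclei, and the stricter nuclei filter 1 in precursor-like nuclei. A prior count of 0.5 left 1 different response against CA3 and 0 against microglia-like nuclei.

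Libraries of the same replicate number did not deviate together (correlations -0.0695, 0.0306 and 0.0401 across 20783 genes). With the replicate number as a block, 0 genes were called over all nuclei, 5 in dentate granule, 3 in inhibitory, 7 in subicular and 1 in oligodendrocyte-like nuclei, and 24 of the pathway list. Block and span offset together gave 0, 2, 1, 0 and 1 in the same order, 1 in CA1, 0 in CA2, 1 in CA3, and 12 of the pathway list.

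Leaving out each library in turn gave 0 to 4 calls over all nuclei, 4 to 10 in dentate granule, 1 to 4 in CA1, 0 to 3 in CA2, 3 to 5 in CA3, 0 to 6 in subicular, 5 to 7 in inhibitory, 1 to 3 in astrocyte, 0 to 2 in oligodendrocyte, 0 to 1 in precursor, 0 to 3 in ependymal and 1 to 4 in endothelial-like nuclei, and 16 to 36 for the pathway list. The count of different responses ranged from 0 to 2 against CA2, 0 to 3 against CA3, 1 to 7 against astrocyte, 0 to 2 against endothelial, inhibitory and oligodendrocyte, 0 to 1 against microglia and precursor, and 1 to 2 against subicular-like nuclei.

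Of the 47 named calls, 43 passed in DESeq2, 28 with the block, 21 with the span offset and 14 in every fit that left out 1 library. Direction changed for Epha6 in dentate granule-like nuclei, at 0.0218 with the span offset and 0.0217 with offset and block, and for Sema4b in astrocyte-like nuclei, at 0.21 with finer clusters; the cause was not tested. Endothelial, ependymal and hilar mossy-like nuclei could not be fitted under the stricter filter, nor newly formed oligodendrocyte-like nuclei with finer clusters.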
